A study of Mus musculus with 9 samples.

Results

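The transcripts of 7 cytokine genes that act on blood cell formation were followed across the endothelium of mouse bone marrow, namely *Kitl*, *Il6*, *Csf1*, *Csf3*, *Lif*, *Il7* and *Il15*. The 7 genes were taken by name from a list of secreted haematopoietic factors, with earlier results of these data known. The paper on these data already reports higher *Kitl* and *Il6* in arterial than in sinusoidal endothelium. For *Kitl* it also gives qPCR of sorted cells and a GFP reporter. Of the 7 genes, 6 had values among the 17232 genes of the deposited table. All 6 were tested among the 16364 genes that passed a filter on low values. *Lif* was not analysed here.

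The 3 populations were sorted from digested marrow of *Nestin*-GFP mice, which carry GFP under control of *Nestin* regulatory sequence. *Nestin*-GFPbright arterial endothelial cells (AECs) and *Nestin*-GFPdim AECs were both CD45-, Ter119-, CD31+, PDPN- and bright for Sca-1, and differed in GFP. Sinusoidal endothelial cells (SECs) were CD45-, Ter119-, CD31+, PDPN+ and dim for Sca-1. Each population gave 3 libraries, numbered 1, 3 and 4. The labels name no treatment and no age. The labels do not say whether libraries came from separate mice. The paper says that n counts the mice analysed, and gives n = 3 for each group in its RPKM plots of *Kitl* and *Cxcl12*. It does not say whether the 3 populations shared mice, so p values measure the spread between these libraries.

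Cytokines of this kind are made by cells beside the blood-forming cells and read by receptors on them. Stem cell factor, the product of *Kitl*, binds the receptor tyrosine kinase Kit and keeps haematopoietic stem cells in the marrow, and it exists in membrane-bound and shed forms. IL-6 and LIF signal through the shared subunit gp130 (*Il6st*), and IL-7 and IL-15 through the common gamma chain (*Il2rg*), with Janus kinases and STAT factors behind each. M-CSF (*Csf1*) sustains monocytes and macrophages, G-CSF (*Csf3*) drives neutrophil formation, IL-7 is needed by early B cells and IL-15 by natural killer cells.

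Promoter sequence was available from RefSeq for 4 of the 7 genes (*Kitl*, *Il6*, *Csf1* and *Lif*; build GRCm38.p6). The bases before the start site are shown for *Il6*, whose level spread widely between libraries of 1 group, and for *Csf1*, whose level differed little. For *Kitl*, the gene that separated the cell types, a stretch of 30 bases is shown. Capitals mark matches to any of 5 motifs, searched on both strands. The motifs were a kappaB site (GGGNNNTTCC), a GC box (GGGCGG), the core of a cyclic AMP element (TGACGT), an AP-1 site (TGANTCA) and a CCAAT box (CCAAT).
Il6, chr5:30012864-30013113, plus strand: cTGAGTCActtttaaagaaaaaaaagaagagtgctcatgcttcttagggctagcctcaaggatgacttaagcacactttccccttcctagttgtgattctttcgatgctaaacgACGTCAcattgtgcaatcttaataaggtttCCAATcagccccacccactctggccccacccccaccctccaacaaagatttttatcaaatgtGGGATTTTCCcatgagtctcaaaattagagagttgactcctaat
Csf1, chr3:107760470-107760719, minus strand: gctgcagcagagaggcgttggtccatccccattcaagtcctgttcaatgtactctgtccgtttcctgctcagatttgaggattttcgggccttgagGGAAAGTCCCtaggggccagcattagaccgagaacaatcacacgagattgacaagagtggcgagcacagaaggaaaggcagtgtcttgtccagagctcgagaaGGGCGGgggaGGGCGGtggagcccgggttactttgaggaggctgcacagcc
Kitl, chr10:100015663-100015692, plus strand: cctctgGGAAGATCCCCGCCCttcagcgcg
Letters of a kappaB site stood in the promoters of *Kitl*, *Il6* and *Csf1*, not in the *Lif* window, and in 5.56% of the 32851 promoters in the table. In *Kitl* the last base of the kappaB match is the first base of a GC box. The *Il6* window also held an AP-1 match, a CRE core and a CCAAT box, which occurred in 7.81%, 7.51% and 37.4% of all promoters. The *Lif* window held an AP-1 match too. GC boxes, present in 35.7% of promoters, matched in *Kitl* and *Csf1* and not in the *Il6* and *Lif* windows. The *Il6* window was poorer in G and C (44.0%) than those of *Csf1* (58.7%) and *Kitl* (68.7%), with a median of 52.7% over all promoters. A match is only a run of letters and no binding was measured.

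The libraries held between 13895090 and 73474534 reads in listed genes. Values are RPKM (reads scaled by the authors to transcript length and library size), and differences are on the scale of log2(RPKM + 1), on which changes of weakly expressed genes come out smaller. Arterial markers summed to 228 to 978 RPKM in AEC libraries and 9.24 to 19.0 RPKM in SEC libraries, and 6 of 7 were called higher in AECs. All 8 sinusoidal markers were called lower in AECs as a whole and in *Nestin*-GFPbright AECs. In *Nestin*-GFPdim AECs against SECs, 2 of the 8 were called lower and 6 were not called. Of all tested genes, 1.94% were called higher in AECs as a whole. The shares called lower were 2.99% in AECs as a whole, 2.85% in *Nestin*-GFPbright AECs and 1.19% in *Nestin*-GFPdim AECs. In *Nestin*-GFPdim AECs the sinusoidal markers summed to 137 to 1047 RPKM, against 3386 to 5846 RPKM in SECs. The 3 libraries numbered 1 stood apart, because 8 neutrophil markers took 16.3% of reads in *Nestin*-GFPbright AEC library 1, 12.8% in *Nestin*-GFPdim AEC library 1 and 8.28% in SEC library 1. In the other 6 libraries these markers took 0.00555% to 3.98%. The sort excluded CD45+ cells. Fewer cells of a type and less RNA per cell cannot be told apart in such samples.

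*Kitl* was the cytokine gene that separated AECs from SECs. It measured 30.6, 117 and 65.0 RPKM in *Nestin*-GFPbright AEC libraries 1, 3 and 4, 20.7, 32.5 and 94.7 RPKM in the *Nestin*-GFPdim AEC libraries, and 0.886, 0.849 and 0.441 RPKM in the SEC libraries. All 6 AEC libraries lay above all 3 SEC libraries, with 1685 to 22771 reads in each AEC library and 126 to 342 reads in each SEC library. Such a full separation in this direction was seen for 4.69% of the tested genes. With 3 libraries a group, *Kitl* averaged 70.9 ± 43.6 RPKM (SD) in *Nestin*-GFPbright AECs and 49.3 ± 39.7 RPKM in *Nestin*-GFPdim AECs, against 0.725 ± 0.247 RPKM in SECs.

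In AECs against SECs, *Kitl* was higher by 4.89 ± 0.52 (log2, SE), with an interval at 95% of 3.70 to 6.08 and an adjusted p of 0.00201 by limma with Benjamini-Hochberg adjustment. It was the only one of the 6 tested cytokine genes called higher, where 1.94% of all tested genes were. An exact two-sided permutation test of *Kitl* over 6 AEC and 3 SEC libraries gave p = 0.0238, the smallest value that this design allows. Each AEC fraction alone was also above SECs in limma, *Nestin*-GFPbright by 5.20 (adjusted p = 0.00331) and *Nestin*-GFPdim by 4.59 (adjusted p = 0.0093). The shares of genes called higher were 1.74% and 0.764% in those comparisons. The call of *Nestin*-GFPdim AECs against SECs was lost without SEC replicate 4 (adjusted p = 0.051 in limma). On the deposited log2 values, without the added 1 RPKM, the difference between AECs and SECs was 6.16. The gene lies on chromosome 10 of GRCm38 from 100015630 to 100100413 on the plus strand, with 6 annotated transcripts, 4 of them protein-coding. The start site of the RefSeq promoter table lies inside this span, so the *Kitl* bases printed above, which precede that start, fall within the annotated gene. Values per gene do not separate the transcripts of the membrane-bound and shed forms.

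Markers of vessel wall cells moved with *Kitl* in part. Of 9 markers of smooth muscle and pericytes, 2 were called higher in AECs against SECs and 2 lower. Of all tested genes, 1.94% were called higher and 2.99% lower in that comparison. The sum of the 9 markers ranged from 44.7 to 397 RPKM in AEC libraries and from 427 to 839 RPKM in SEC libraries. Those called higher were *Acta2*, smooth muscle actin, at 8.65 to 143 RPKM in AECs and 0.0279 to 5.37 RPKM in SECs, and *Rgs5*, a pericyte marker, at 0.423 to 86.9 RPKM in AECs and 0.0968 to 0.447 RPKM in SECs. *Kcnj8* and *Abcc9*, the subunits of a potassium channel, were the markers called lower and made up most of the sum in SECs. In *Nestin*-GFPdim AECs, where *Kitl* was 20.7 to 94.7 RPKM, *Rgs5* was 0.423 to 3.08 RPKM and the pericyte marker *Higd1b* had 0 reads in all 3 libraries. *Acta2* was 8.65 to 24.4 RPKM there, above its SEC range. The smooth muscle marker *Tagln* was 6.45 to 41.9 RPKM against 2.41 to 4.52 RPKM in SECs. *Myh11*, another, was 0.0438 to 2.96 RPKM against 0.00102 to 0.00709 RPKM. Of the 9 markers, 0 were called higher in this fraction against SECs, and 1 was called lower. The shares over all tested genes were 0.764% higher and 1.19% lower. Of 10 stroma markers, 1 was called higher and 0 lower in *Nestin*-GFPbright AECs against SECs, with a median difference of −0.48. The shares over all tested genes in that comparison were 1.74% higher and 2.85% lower. The stroma marker called was *Pdgfrb*, also a pericyte marker, at 2.06 to 6.24 RPKM against 0.093 to 0.518 RPKM in SECs. No stroma marker was called in *Nestin*-GFPdim AECs or in AECs as a whole against SECs. The part of such cells in the levels of *Kitl* and of the other genes higher in AECs was not tested.

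**Figure D1:**
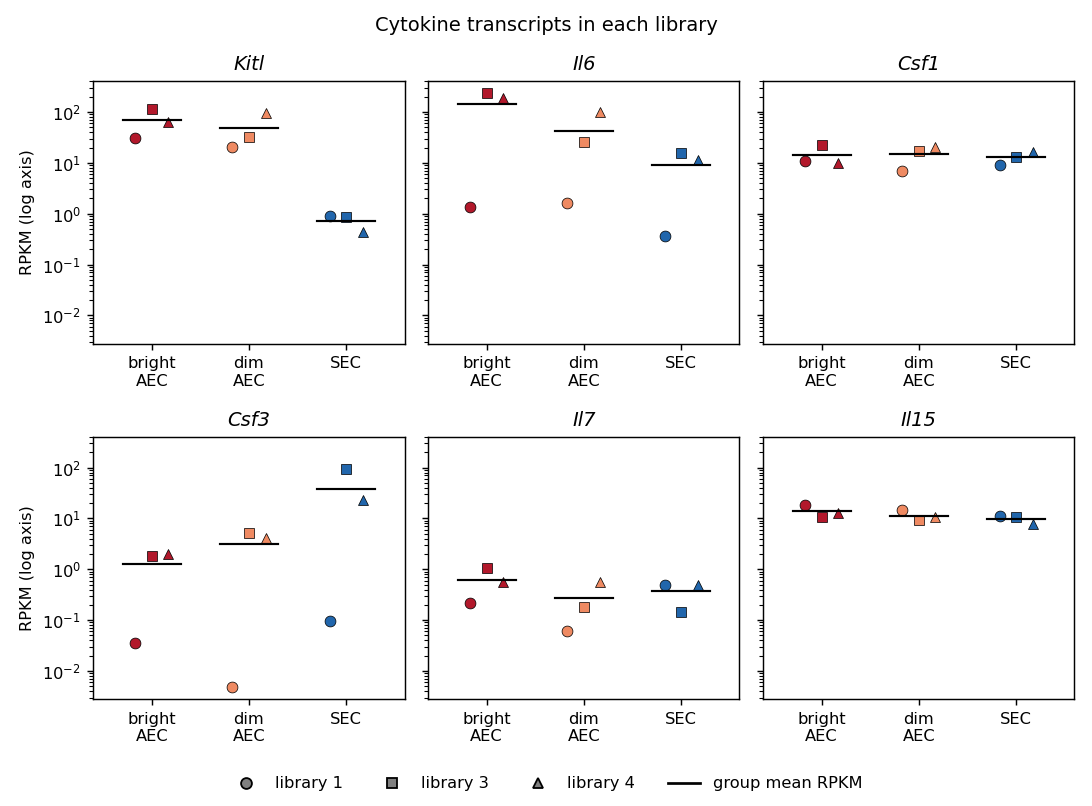
RPKM of each of the 6 cytokine genes (log axis) in the 3 libraries of *Nestin*-GFPbright AECs, of *Nestin*-GFPdim AECs and of SECs, with symbols for library numbers 1, 3 and 4 and a line at the group mean. *Kitl* lies between 20.7 and 117 RPKM in AEC libraries and at or under 0.886 RPKM in SEC libraries, while *Il6* and *Csf3* are lowest in library 1 of every group. The lowest *Csf3* point, *Nestin*-GFPdim AEC library 1, had 0 reads.

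*Il6* reached the highest level of any of the cytokine genes, and its lowest values lay in the libraries numbered 1 of all 3 groups. It measured 1.37, 237 and 192 RPKM in *Nestin*-GFPbright AEC libraries 1, 3 and 4, and 1.64, 25.2 and 100.4 RPKM in the *Nestin*-GFPdim AEC libraries. In SEC libraries 1, 3 and 4 it measured 0.358, 15.8 and 11.5 RPKM. The 3 libraries numbered 1 held the 3 lowest values, from 15 to 68 reads each. Among the libraries numbered 3 and 4, all 4 AEC values lay above both SEC values, and within number 1 both AEC values lay above the SEC value.

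Over all 9 libraries the groups overlapped, and the difference of *Il6* between AECs and SECs was 2.20 ± 1.72 (log2, SE; interval −1.73 to 6.13; limma adjusted p = 0.721). The exact two-sided permutation test gave p = 0.262, with 4 of 6 AEC libraries above every SEC library. *Nestin*-GFPbright AECs were 2.86 above SECs (limma adjusted p = 0.645) and *Nestin*-GFPdim AECs 1.54 (limma adjusted p = 0.968), neither of them called. With the libraries numbered 3 and 4 alone, *Nestin*-GFPbright AECs were 3.89 above SECs and called (limma adjusted p = 0.0363). Of 22 other settings, 2 made that call, namely this one and the replicate block on all libraries. With libraries 3 and 4 alone, AECs as a whole were 2.86 above SECs and were not called (limma adjusted p = 0.0556). The neutrophil markers at 8.28% to 16.3% of reads stood in the same libraries as the 3 lowest *Il6* values, and their part in this was not tested. The gene lies on chromosome 5 from 30013161 to 30019968, on the plus strand.

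*Csf3* ran the other way, with its highest values in SECs. It measured 0.0356, 1.83 and 2.002 RPKM in *Nestin*-GFPbright AEC libraries 1, 3 and 4, from 2, 87 and 61 reads. *Nestin*-GFPdim AEC library 1 had no *Csf3* read, which allows up to 0.151 RPKM at 3 reads, and libraries 3 and 4 measured 5.21 and 4.18 RPKM. In SECs it measured 0.095, 92.9 and 22.6 RPKM, from 5, 9192 and 1587 reads. SEC libraries 3 and 4 stood above every AEC library, and SEC library 1 was below all 4 AEC libraries numbered 3 and 4. Within number 1 the counts were 2 and 0 reads in AECs against 5 reads in SECs, too few to rank.

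The difference of *Csf3* between AECs and SECs was −2.39 ± 1.28 (log2, SE; interval −5.30 to 0.53) and was not called (limma adjusted p = 0.479). The exact two-sided permutation test gave p = 0.143. Without SEC replicate 1 the difference was −4.198 and called (limma adjusted p = 0.0462), with the libraries numbered 3 and 4 alone it was −3.53 and called (limma adjusted p = 0.0345), and without SEC replicate 3 it was −0.99 (limma adjusted p = 0.994). SEC library 3, the highest in *Csf3*, had the lowest share of neutrophil marker reads (0.00555%), and in SEC library 4, at 22.6 RPKM of *Csf3*, the share was 3.89%. The receptor of G-CSF, *Csf3r*, measured 0.437 RPKM in SEC library 3. Whether blood cells in the sorted fractions have a part in the *Csf3* values was not tested. The gene lies on chromosome 11 from 98701263 to 98703629, on the plus strand.

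**Figure D2:**
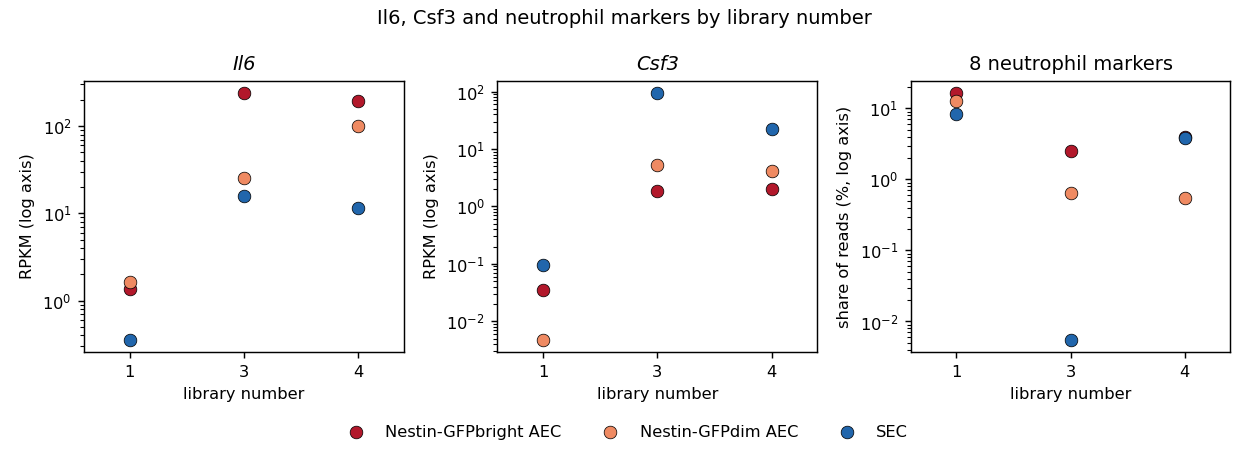
*Il6* and *Csf3* in RPKM and the share of reads in 8 neutrophil markers in percent (all on log axes), by library number, with 1 point per library coloured by group. Library 1 of each group has the lowest *Il6* and *Csf3* of its group, and the 3 libraries numbered 1 hold 8.28% to 16.3% of reads in neutrophil markers. The points of 1 group are separate libraries and have no order in time.

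*Csf1* and *Il15* were at similar levels in the 3 populations, and neither was called in any comparison. *Csf1* measured 10.9, 22.8 and 9.93 RPKM in *Nestin*-GFPbright AECs, 6.93, 17.5 and 20.2 RPKM in *Nestin*-GFPdim AECs and 8.94, 13.2 and 16.4 RPKM in SECs. Its AEC libraries spanned the SEC libraries on both sides. The difference between AECs and SECs was 0.11 (interval −0.78 to 1.01; limma adjusted p = 0.966).

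*Il15* measured 18.2, 10.6 and 12.8 RPKM in *Nestin*-GFPbright AECs, 14.4, 9.18 and 10.6 RPKM in *Nestin*-GFPdim AECs and 11.3, 10.8 and 7.73 RPKM in SECs. In each population library 1 was the highest, the opposite of *Il6* and *Csf3*. The difference between AECs and SECs was 0.30 (interval −0.24 to 0.84; limma adjusted p = 0.729). *Il15* had means of 13.9 ± 3.91 RPKM (SD) in *Nestin*-GFPbright AECs, 11.4 ± 2.70 RPKM in *Nestin*-GFPdim AECs and 9.96 ± 1.95 RPKM in SECs, over 3 libraries each. *Csf1* lies on chromosome 3 from 107741048 to 107760469 and *Il15* on chromosome 8 from 82331637 to 82403222, both on the minus strand.

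*Il7* was near the limit of these libraries. It measured 0.214, 1.06 and 0.563 RPKM in *Nestin*-GFPbright AECs, 0.0601, 0.182 and 0.575 RPKM in *Nestin*-GFPdim AECs and 0.487, 0.147 and 0.498 RPKM in SECs, from 2 to 88 reads a library. The groups overlapped, and the difference between AECs and SECs was 0.04 (interval −0.42 to 0.49; limma adjusted p = 0.977). At this level the added 1 RPKM exceeds nearly every value, so the interval says little about relative change. *Il7* lies on chromosome 3 from 7572077 to 7613427 on the minus strand, and the antisense gene *Gm16685* overlaps its start. The counting is not stated to use strand, so reads of the overlap cannot be told apart.

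No cytokine gene was called between *Nestin*-GFPbright and *Nestin*-GFPdim AECs, a comparison in which limma called 0 of 16364 genes (0%), with 803 at an unadjusted p under 0.05 and 0 called by voom on the recovered reads. *Kitl* was 0.61 higher in *Nestin*-GFPbright AECs (interval −0.77 to 1.98; limma adjusted p = 0.998). The interval of *Il6* ran from −3.22 to 5.85 and that of *Csf3* from −3.99 to 2.74, too wide to say that the fractions are alike. Those of *Csf1* (−1.03 to 1.03), *Il7* (−0.20 to 0.85) and *Il15* (−0.37 to 0.88) were narrower. For *Il7* the added 1 RPKM exceeds nearly every value, so its interval says little about relative change. Its difference between the fractions ran from 0.14 to 1.45 over 21 other settings and was called in 0 of them.

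**Figure D3:**
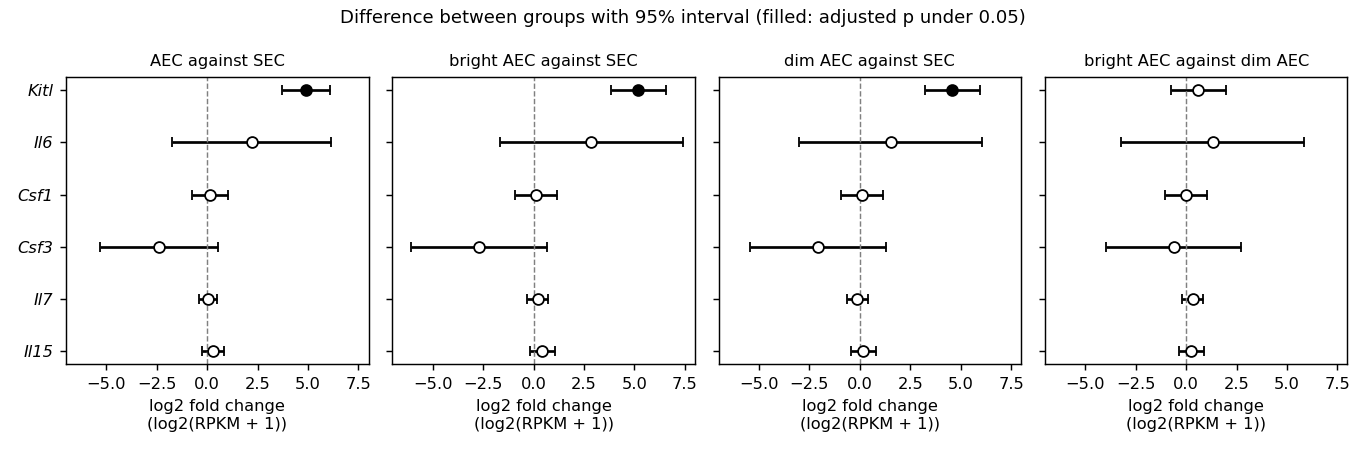
Difference between groups on the scale of log2(RPKM + 1) with its interval at 95% for the 6 cytokine genes, in the 4 comparisons, with filled points where the limma adjusted p was under 0.05. Only *Kitl* is filled, at 4.89 in AECs, 5.20 in *Nestin*-GFPbright AECs and 4.59 in *Nestin*-GFPdim AECs, each against SECs, and the intervals of *Il6* and *Csf3* are the widest.

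The order of the 6 genes differed between populations. In *Nestin*-GFPbright AECs the mean levels ran *Il6*, *Kitl*, *Csf1*, *Il15*, *Csf3*, *Il7*, and the ranges of *Il6* and *Kitl*, of *Csf1* and *Il15* and of *Csf3* and *Il7* overlapped. In *Nestin*-GFPdim AECs *Kitl* came before *Il6*, and only the step between *Il15* and *Csf3* was free of overlap. In SECs the order was *Csf3*, *Csf1*, *Il15*, *Il6*, *Kitl*, *Il7*, and every neighbour overlapped the next.

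As a share of the summed RPKM of the 6 genes, *Kitl* made up 23.1% to 49.9% in AEC libraries and 0.634% to 4.01% in SEC libraries. *Csf3* made up 69.5% in SEC library 3 and 38.2% in SEC library 4, and at most 5.80% in any AEC library. In SEC library 1, where both *Il6* and *Csf3* were low, *Il15* (51.2%) and *Csf1* (40.5%) were the main transcripts. The sum of the 6 genes ranged from 43.8 to 391 RPKM in AEC libraries and from 22.1 to 134 RPKM in SEC libraries, and library 1 had the lowest sum of every group.

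**Figure D4:**
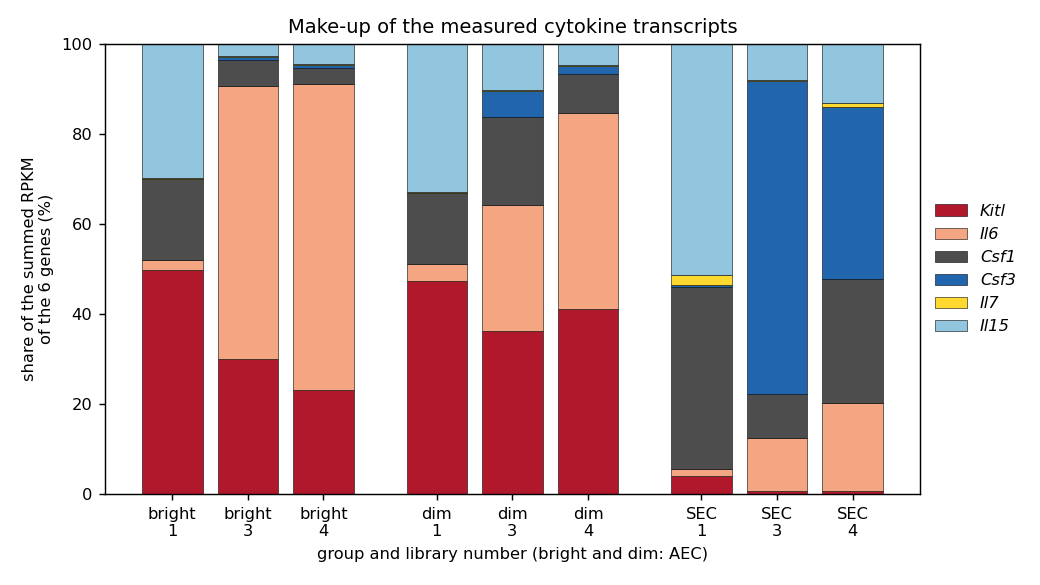
Stacked bars of the share that each cytokine gene takes of the summed RPKM of the 6 genes (percent), with 1 bar per library, in *Nestin*-GFPbright AECs, in *Nestin*-GFPdim AECs and in SECs. *Kitl* fills 23.1% to 49.9% of the AEC bars and at most 4.01% of the SEC bars, and *Csf3* fills 69.5% and 38.2% of the bars of SEC libraries 3 and 4.

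The receptors of the 7 cytokines were all measured. Of 10 receptor genes, 0 were called higher and 1 was called lower in AECs against SECs, where limma called 1.94% of all tested genes higher and 2.99% lower. The median difference over the 10 was 0.23, against 0.03 over all tested genes. The gene called was *Il6st*, which encodes gp130, the signalling subunit shared by the IL-6 and LIF receptors. It measured 15.3, 46.1 and 55.1 RPKM in *Nestin*-GFPbright AECs, 31.7, 131 and 118 RPKM in *Nestin*-GFPdim AECs and 247, 416 and 211 RPKM in SECs. All AEC libraries lay below all SEC libraries, as in 5.77% of the tested genes.

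*Il6st* was lower in AECs by −2.40 ± 0.55 (log2, SE; limma adjusted p = 0.046), with the same direction in all 21 other settings and the call kept in 10. The call was lost without *Nestin*-GFPbright AEC replicate 3 or 4, *Nestin*-GFPdim AEC replicate 4 or any 1 of the SEC replicates (limma adjusted p up to 0.223). The partner subunits were not called. *Il6ra*, which binds IL-6, ranged from 1.06 to 13.3 RPKM in AEC libraries and from 0.117 to 4.197 RPKM in SEC libraries, and was highest in library 1 of each group (difference 0.57; limma adjusted p = 0.888). *Lifr*, which binds LIF, ranged from 8.78 to 31.4 RPKM in AEC libraries and from 13.1 to 27.3 RPKM in SEC libraries (difference 0.12; limma adjusted p = 0.965).

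The other receptors were not called. *Kit*, the receptor of stem cell factor, measured 4.69 to 10.2 RPKM in AEC libraries and 5.83 to 10.9 RPKM in SEC libraries (difference −0.28; limma adjusted p = 0.832). The common gamma chain *Il2rg* measured 42.2 to 114 RPKM in AECs and 89.2 to 190 RPKM in SECs (difference −0.92; limma adjusted p = 0.294), and *Il15ra*, which presents IL-15, measured 3.597 to 6.53 RPKM in AECs and 4.81 to 5.90 RPKM in SECs. Other receptors followed the library number in part. *Csf3r*, the neutrophil receptor of G-CSF, measured 181 RPKM in *Nestin*-GFPbright AEC library 1, 80.7 RPKM in *Nestin*-GFPdim AEC library 1 and 74.8 RPKM in SEC library 1, and 0.437 to 43.7 RPKM in the others. *Il7r* showed the same split, at 21.5 RPKM in *Nestin*-GFPbright AEC library 1, 19.2 RPKM in *Nestin*-GFPdim AEC library 1 and 6.80 RPKM in SEC library 1, and at most 4.31 RPKM in the others. *Csf1r*, the macrophage receptor of M-CSF, ranged from 0.615 to 20.7 RPKM in AECs and from 0.224 to 16.3 RPKM in SECs, and *Il2rb*, a subunit of the IL-15 receptor, from 0 reads to 13.9 RPKM in AECs and from 1 read to 5.03 RPKM in SECs.

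**Figure D5:**
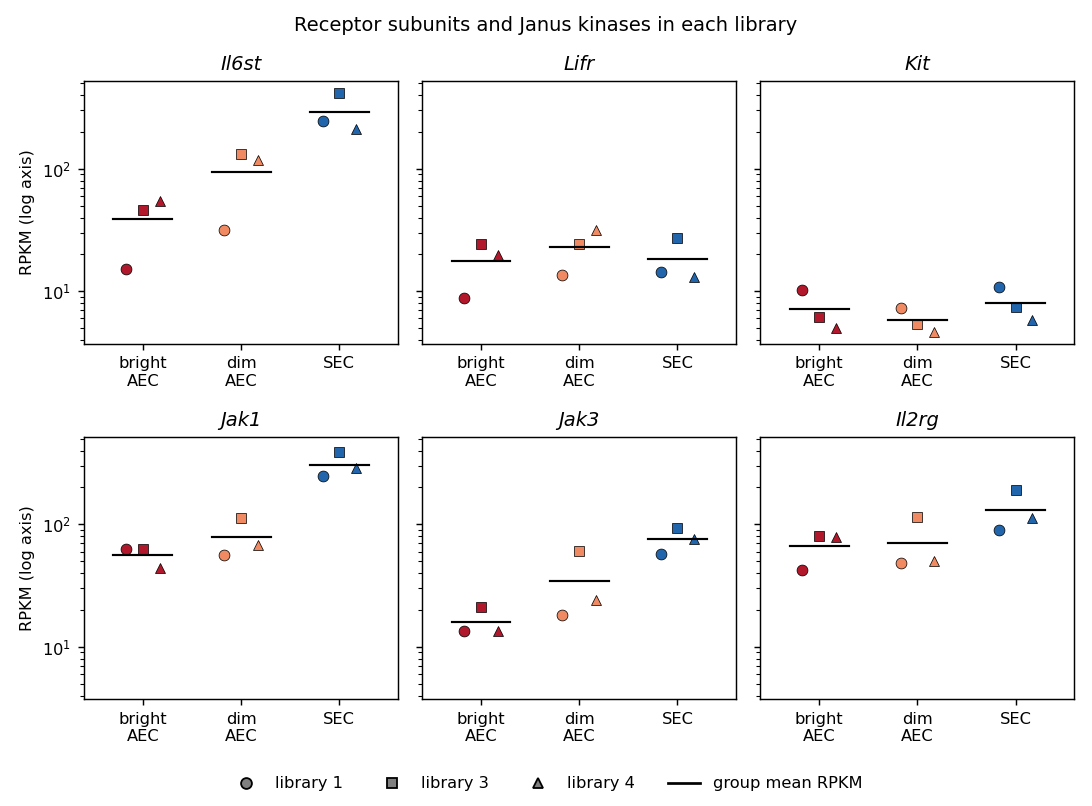
RPKM (log axis) of the receptor subunits *Il6st*, *Lifr*, *Kit* and *Il2rg* and of the Janus kinases *Jak1* and *Jak3* in the 3 libraries of *Nestin*-GFPbright AECs, of *Nestin*-GFPdim AECs and of SECs, with a line at the group mean. *Il6st* lies at 15.3 to 131 RPKM in AEC libraries and 211 to 416 RPKM in SEC libraries, and *Jak1* at 43.9 to 113 RPKM in AEC libraries and 247 to 389 RPKM in SEC libraries, whereas the ranges of *Lifr* and *Kit* overlap.

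Downstream of these receptors, 2 of 12 genes of the JAK-STAT pathway and its SOCS inhibitors were lower in AECs against SECs and 0 were higher, with a median difference of −0.34. Among all tested genes limma called 2.99% lower. *Jak1*, the kinase used by gp130 and by the common gamma chain receptors, measured 63.1, 63.1 and 43.9 RPKM in *Nestin*-GFPbright AECs, 55.9, 113 and 67.6 RPKM in *Nestin*-GFPdim AECs and 247, 389 and 288 RPKM in SECs. It was lower in AECs by −2.20 ± 0.28 (log2, SE; limma adjusted p = 0.00354), and in each fraction alone, by −2.41 in *Nestin*-GFPbright AECs (limma adjusted p = 0.00486; 2.85% of genes called lower) and −1.99 in *Nestin*-GFPdim AECs (limma adjusted p = 0.0191; 1.19% of genes called lower). The call in AECs against SECs held in all 21 other settings, while that of *Nestin*-GFPdim AECs was lost without *Nestin*-GFPdim AEC replicate 1 or 4 or SEC replicate 3 or 4 (limma adjusted p up to 0.0858).

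*Jak3*, which pairs with the common gamma chain, was lower in AECs by −1.72 (limma adjusted p = 0.0358), at 13.4 to 61.0 RPKM in AECs against 57.4 to 93.6 RPKM in SECs, so that *Nestin*-GFPdim AEC library 3 overlapped the SEC range. Its call was kept in 10 of 21 other settings, and *Nestin*-GFPdim AEC replicate 3 was the only library that could be left out without losing it (limma adjusted p up to 0.178). The remaining 10 genes of this list, among them the STAT factors of these receptors, were not called.

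Of 7 genes that release membrane-bound cytokines, 1 was lower in AECs against SECs, where limma called 2.99% of all tested genes lower. *Adam9*, a metalloprotease, measured 6.57, 21.02 and 14.0 RPKM in *Nestin*-GFPbright AECs, 12.2, 37.0 and 16.1 RPKM in *Nestin*-GFPdim AECs and 42.6, 87.6 and 60.5 RPKM in SECs (difference −1.89; limma adjusted p = 0.0472; call kept in 8 of 21 other settings). Of the 9 libraries, only *Nestin*-GFPbright AEC replicate 3 and *Nestin*-GFPdim AEC replicate 3 could be left out without losing that call (limma adjusted p up to 0.23). *Rhbdf2*, which encodes iRhom2, a partner of the sheddase ADAM17, was higher in *Nestin*-GFPbright AECs against SECs by 1.48 (limma adjusted p = 0.0377), at 22.8, 28.6 and 23.5 RPKM against 9.98, 7.42 and 7.69 RPKM in SECs, and was not called for AECs as a whole (limma adjusted p = 0.0522). The call was lost without any 1 of these 6 libraries (limma adjusted p up to 0.148).

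Of 12 other niche factors, 4 rose and 1 fell in AECs against SECs, with a median difference of 0.86. Among all tested genes limma called 1.94% higher and 2.99% lower. The paper already reports *Cxcl12*, *Jag1*, *Jag2* and *Tgfb2* as higher in AECs from the same sequencing. For *Cxcl12* it also gives qPCR and a GFP reporter. The count here is therefore not independent of that report. *Jag1* was not called here (difference 0.47; limma adjusted p = 0.908). It ranged from 2.41 to 28.5 RPKM in AEC libraries and from 3.34 to 6.04 RPKM in SEC libraries. *Vegfc*, a growth factor for lymphatic and sinusoidal vessels, measured 28.8, 112 and 103 RPKM in *Nestin*-GFPbright AECs, 13.4, 25.8 and 95.2 RPKM in *Nestin*-GFPdim AECs and 1.21, 1.94 and 1.34 RPKM in SECs (difference 4.29; limma adjusted p = 0.00673). *Cxcl12*, the chemokine that holds haematopoietic stem cells in the marrow, ranged from 50.1 to 296 RPKM in AEC libraries and from 6.46 to 16.3 RPKM in SEC libraries (difference 3.49; limma adjusted p = 0.0145). The call of *Cxcl12* was lost without SEC replicate 1 (limma adjusted p = 0.0656) or SEC replicate 4 (limma adjusted p = 0.0767). That of *Vegfc* in AECs against SECs held whichever library was left out. *Vegfc* was also called in *Nestin*-GFPdim AECs against SECs (limma adjusted p = 0.0404), a call lost without any 1 of 7 libraries (limma adjusted p up to 0.156).

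*Tgfb2*, a TGF-beta ligand, ranged from 1.97 to 17.6 RPKM in AECs, against 1, 11 and 0 reads in the SEC libraries (limma adjusted p = 0.0103). Its call was lost without SEC replicate 3 (limma adjusted p = 0.0547) or SEC replicate 4 (limma adjusted p = 0.0592). *Jag2*, a Notch ligand, ranged from 6.13 to 31.9 RPKM in AECs and from 1.46 to 1.88 RPKM in SECs (difference 2.59; limma adjusted p = 0.0277), a call lost without *Nestin*-GFPbright AEC replicate 3 or 4 or any 1 of the SEC replicates (limma adjusted p up to 0.13). The gene that fell was *Igf1*, which encodes insulin-like growth factor 1, at 0.172 to 1.19 RPKM in AECs against 3.44 to 10.4 RPKM in SECs (difference −2.06; limma adjusted p = 0.0129). Its call in AECs as a whole held whichever library was left out. Its call in *Nestin*-GFPbright AECs was lost without any 1 of 4 libraries (limma adjusted p up to 0.0811). In *Nestin*-GFPdim AECs it was lost without any 1 of the 9 (limma adjusted p up to 0.17). *Bmp4*, a bone morphogenetic protein, was lower in *Nestin*-GFPbright AECs against SECs alone, at 0.0618, 2.58 and 2.27 RPKM against 9.90, 19.0 and 15.02 RPKM in SECs (difference −2.71; limma adjusted p = 0.037). That call was lost without any 1 of these 6 libraries or *Nestin*-GFPdim AEC replicate 3 (limma adjusted p up to 0.148).

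Cytokines related to the 7 genes gave no call in AECs against SECs by limma: of 25 listed, 17 had values and 15 were tested, with a median difference of 0.16. Of 13 regulators of inflammatory cytokine transcripts, likewise, 0 were called, with a median difference of 0.25.

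For the 5 cytokine genes that reached 1 RPKM in 3 or more libraries, the 3 genes of most similar level over the 9 libraries were found among 5702 genes by Pearson's r. These values describe 9 libraries that share depth and library number, and they are the highest of many. *Kitl* ran closest to *Sema3g* (r = 0.996), *Fbln2* (r = 0.994) and *Pcp4l1* (r = 0.993). *Sema3g*, a semaphorin, is itself 1 of the arterial markers used here. *Il6* ran closest to *Nfkbia* (r = 0.982), which encodes the inhibitor of NF-kappaB and is induced by it, then to *Mafk* (r = 0.981) and *Rassf1* (r = 0.980). *Csf1* ran close to *Ubxn2a* (r = 0.938) and *Topors* (r = 0.932). *Csf3* ran closest to *Trim25* (r = 0.936), *Ttc4* (r = 0.918) and *Cxcl10* (r = 0.902), and *Il15* to *Lsm8* (r = 0.938), *Nceh1* (r = 0.931) and *Myl12b* (r = 0.928). *Kitl* and *Il6* had r = 0.597 with each other and *Kitl* and *Csf3* r = −0.457, over the same 9 libraries.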

How the data were processed

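Libraries came from a low-input complementary DNA kit and were read single-end. The authors aligned them with STAR, took counts per gene from HTSeq, removed genes under 0.1 CPM in at least 7 of 9 libraries, scaled libraries by TMM in edgeR 3.12.0 and deposited log2 RPKM values. The submitters' processing notes name mm9, but 99.98% of the 17087 genes found in GENCODE M21 overlap the gene of the same identifier on GRCm38, so positions are given on GRCm38. RPKM was taken back from the deposited log2 values. Whole reads behind them were computed from the value of genes without a read, and 99.9942% came out whole within 0.0001 reads. The kit has no molecular identifiers, so a limit drawn from 3 reads covers counting error only.

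Tests used limma 3.58.1 in R 4.3.3, with a trend in the variance, on log2(RPKM + 1) of genes that reached 0.1 RPKM in 3 or more libraries, with the 3 groups fitted together and no block. Values were called under an adjusted p of 0.05 over all genes. Exact permutation tests used scipy 1.17.1 and Python 3.11.15. The fit was tested on simulated reads, drawn independently with the same dispersion for every gene and no effect of library number. That run cannot show how library number affects the calls. All 9 columns were used. The cytokine genes, gene lists and tests were chosen with earlier results of these data known. Named genes were the cytokine genes, their receptors, every called gene of the other lists, and the 3 genes of highest correlation with each cytokine gene among those with a group mean of at least 10 RPKM, of which 1 for *Csf1* is not reported here. Alternatives covered the pseudocount, filter, scaling, variance model, weights, block, voom on recovered reads, libraries 3 and 4 alone and each library left out. A fit of libraries 3 and 4 with a block was added after seeing the data.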

Additional observations from a re-analysis of the deposited data

How the results depend on the processing

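The count of called cytokine genes in AECs against SECs was 1 in most settings and 2 with libraries 3 and 4 only, with those libraries and a replicate block, and without SEC replicate 1 (1 to 2 when each library was left out), where *Csf3* joined *Kitl*. In *Nestin*-GFPbright AECs against SECs it was 3 with libraries 3 and 4 only (*Kitl*, *Il6* and *Csf3*), 2 with those libraries and a replicate block, where *Il6* was not called (limma adjusted p = 0.0569), and 2 with the replicate block on all libraries. In *Nestin*-GFPdim AECs against SECs it was 0 without SEC replicate 4 (0 to 1 when each library was left out) and 0 with libraries 3 and 4 and a block, a fit chosen after seeing the data. *Kitl* against SECs stayed between 4.59 and 6.16 in AECs, between 4.74 and 6.48 in *Nestin*-GFPbright AECs and between 3.98 and 5.85 in *Nestin*-GFPdim AECs. The number of all genes called, 807 in AECs, 750 in *Nestin*-GFPbright AECs and 319 in *Nestin*-GFPdim AECs against SECs, ranged over the settings from 307 to 1717, from 303 to 2065 and from 39 to 644, and between the AEC fractions from 0 to 3. The cause of these changes was not tested. At 2 to 88 reads a library, depth limits what *Il7* can show.

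The deviations of same-numbered libraries from their group means correlated at 0.15 to 0.78 between the AEC fractions, at 0.12 to 0.78 between *Nestin*-GFPdim AECs and SECs and at −0.21 to 0.71 between *Nestin*-GFPbright AECs and SECs. Values for number 1 were 0.71 to 0.78, those for number 3 were 0.42 to 0.65 and those for number 4 were −0.21 to 0.15. The labels do not say whether a number marks shared mice. The main fit and the permutation tests therefore used no block, and they treat same-numbered libraries as independent, which these values do not establish. With the replicate block *Il6* was called in *Nestin*-GFPbright AECs against SECs (2.86; limma adjusted p = 0.047), and no other call of a cytokine gene changed. The block called 1333 genes in AECs, 1391 in *Nestin*-GFPbright AECs and 644 in *Nestin*-GFPdim AECs against SECs, and 3 between the AEC fractions.

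Differences near 0 changed sign. In AECs against SECs *Csf1* was −0.027 with weights per library and −0.11 to 0.33 when a library was left out, and *Il7* was −0.006 with a pseudocount of 0.1, −0.11 on deposited log2 values, −0.011 after a shift to 1 median, −0.026 with weights per library and −0.087 to 0.13 when a library was left out. In *Nestin*-GFPbright AECs against SECs *Csf1* was −0.15 with weights and −0.24 to 0.32 when a library was left out. In *Nestin*-GFPdim AECs against SECs *Csf1* was −0.16 to 0.55 when a library was left out, and *Il7* was 0.0575 with libraries 3 and 4, with and without a block. Between the AEC fractions *Csf1* was 0.0041 with a pseudocount of 0.1, 0.0048 on deposited log2 values and −0.44 to 0.27 when a library was left out, *Il6* was −0.11 to 3.48 when a library was left out, and *Csf3* was 0.11 on deposited log2 values.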

Other observations

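Of the genes related to these cytokines, the following were picked after their values were seen and were not called in any comparison. *Osm*, an IL-6 family cytokine made by blood cells, measured 716 RPKM in *Nestin*-GFPbright AEC library 1, 477 RPKM in *Nestin*-GFPdim AEC library 1 and 253 RPKM in SEC library 1, and 0.0344 to 26.9 RPKM in the other 6. *Il1b* was also highest in the libraries numbered 1, at 1097 RPKM in *Nestin*-GFPbright AECs, 667 RPKM in *Nestin*-GFPdim AECs and 421 RPKM in SECs, against 3.02 to 159 RPKM in the other 6. *Atf3*, a stress-induced transcription factor, was low in the same 3 libraries, at 15.8 RPKM in *Nestin*-GFPbright AECs, 13.4 RPKM in *Nestin*-GFPdim AECs and 6.21 RPKM in SECs, and measured 130 to 917 RPKM in the others. *Il6* and *Csf3* were low where *Atf3* was low. The reason for these splits was not tested.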
